A study of Mus musculus with 4 samples.

Results

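The proteasome genes were the 48 genes whose symbol in the platform's annotation starts with Psma, Psmb, Psmc, Psmd or Psme followed by a number, or with Psmg and a number, or is Pomp, out of 12393 named genes. Together they had 82 probe sets. Of the 48 genes, 46 encode a subunit, an activator or an assembly factor, and 2 (Psmc3ip and Psme3ip1) matched by name only, since they are named for a proteasome protein that theirs binds. Adrm1 and Psmb11, which the rule also takes, had no probe set named for them alone, and Psme2 shared its probe set with Psme2b, so these 3 were not analysed as genes. Each gene was represented by its brightest probe set over the 4 arrays. A gene counted as measured when its highest value reached 7.53, the median of all values and called the floor here, and 43 of the 46 did so. Psma8, Psmb8 and Psmb9 did not.

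The data are 4 expression arrays of fibroblasts, the matrix-producing cells of connective tissue, cultured from mouse embryos of the strain given as C57/BJ6. One array was run for each of these groups: cells labelled Npm1+/+ (called wild type) measured as total RNA, the same label measured as ribosome-bound RNA (called polysome RNA), and cells labelled Npm1+/- (called heterozygote) measured as total RNA and as polysome RNA. The study asked whether loss of Npm1, which encodes the nucleolar protein nucleophosmin, shifts which RNAs are held on ribosomes. The labels do not say how many embryos or cultures stand behind an array, or whether total and polysome RNA of a genotype were drawn from 1 culture. With 1 array per group no value has replicate error, no p-value was computed, and every direction is a difference between libraries by their label. All values are on the log2 scale, on which 0.58 is 1.5-fold and 1 is 2-fold.

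The proteasome degrades proteins tagged with ubiquitin. Its barrel, the 20S core, is built of alpha subunits that form the gated outer rings and beta subunits that form the inner rings, some of which carry the active sites. The 19S cap has a base, with a ring of ATPases that unfold substrates and large scaffold subunits that dock ubiquitin carriers, and a lid that removes the ubiquitin chain. Activators of the Psme family can take the place of the cap, and dedicated chaperones assist assembly. Transcription of the subunit genes is coordinated largely by Nfe2l1, which binds antioxidant response elements.

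Npm1 itself did not separate the genotype labels. Its probe sets differed by 0.05 and 0.07 in total RNA and by -0.09 and 0.06 in polysome RNA. Of the fibroblast markers on the array, 11 of 11 were at or above the floor on each array. Between the fraction labels, summed macrophage markers read 10.42 and 10.70 in the total libraries and 11.64 and 12.03 in the polysome libraries. Between the genotype labels, the measured fibroblast markers had medians of -0.17 in total and -0.18 in polysome RNA, with 1 and 2 of 11 above the median gene. Of the 14 macrophage markers, 3 reached the floor on each total array, and 7 and 9 on the wild-type and heterozygote polysome arrays. Those 3 were Lyz2 (0.61 and 0.64 in total and polysome RNA), Csf1r (0.08 and -0.19) and Laptm5 (0.06 and -0.04). C1qc, for 1, reached it only on the heterozygote polysome array, at 7.57, so its differences are not read. The part of fibroblast or macrophage RNA in the genotype differences below was not tested. None of 4 epithelial markers, 1 of 4 endothelial and 1 of 3 T cell markers reached the floor. In such bulk samples, fewer cells of a type and less RNA per cell cannot be told apart.

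Promoter sequences are shown because most members differed the same way between the labels and the response element of Nfe2l1 can be read from them. Each is the stretch of 120 bases that ends just before the gene start, from RefSeq (GRCm38.p6), 5′ to 3′ on the gene's strand, and capitals mark TGACNNNGC, the core of the antioxidant response element, or CCAAT, the box bound by NF-Y. Psmb5 and Psmb6 encode active-site subunits with the element, Psmd9 an assembly factor with it, and Psmb3 a beta subunit with CCAAT boxes. Psmd1 and Psmd2 encode the scaffold subunits that stood lowest. Psmc6 and Psmd12 also hold the element, but before the printed stretch. Between the genotype labels in total RNA they differed by 0.22 and 0.02, and Psmb5, Psmb6 and Psmd9 by 0.47, 0.59 and 0.49. The part of the element in these differences was not tested.
Psmb5, chr14:54617996-54618115, - strand: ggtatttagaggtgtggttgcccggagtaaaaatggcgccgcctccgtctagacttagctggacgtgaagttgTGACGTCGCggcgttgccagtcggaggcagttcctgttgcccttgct
Psmb6, chr11:70525237-70525356, + strand: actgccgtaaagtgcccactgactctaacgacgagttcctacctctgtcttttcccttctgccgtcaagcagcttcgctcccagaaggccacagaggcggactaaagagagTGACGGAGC
Psmd9, chr5:123228070-123228189, + strand: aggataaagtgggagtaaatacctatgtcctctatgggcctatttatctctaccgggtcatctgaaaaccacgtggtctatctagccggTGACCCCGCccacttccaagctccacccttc
Psmb3, chr11:97703314-97703433, + strand: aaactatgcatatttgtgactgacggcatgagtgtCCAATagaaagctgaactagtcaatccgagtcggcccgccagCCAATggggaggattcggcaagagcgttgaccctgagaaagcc
Psmd1, chr1:86064499-86064618, + strand: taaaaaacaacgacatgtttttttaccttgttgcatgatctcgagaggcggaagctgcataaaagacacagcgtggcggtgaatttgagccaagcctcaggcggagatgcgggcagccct
Psmd2, chr16:20651532-20651651, + strand: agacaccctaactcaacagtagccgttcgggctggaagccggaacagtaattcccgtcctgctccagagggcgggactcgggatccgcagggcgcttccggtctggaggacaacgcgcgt

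Over the 250 bases before the start and on both strands, TGACNNNGC was found in 5 of the 38 role-carrying genes with an entry in the promoter table (13.2%), namely Psmb5, Psmb6, Psmc6, Psmd12 and Psmd9, against 11.5% of 27025 genes. CCAAT was found in 13 of 38 (34.2%) against 37.5% of all. By role it was in 5 of 7 alpha, 1 of 4 beta and 1 of 3 inducible or tissue-specific genes. It was in 3 of 8 base, 1 of 6 lid, 1 of 3 activator and 1 of 7 assembly factor genes. No gene held both motifs, and a match is a description of letters only. Neither was found in that window of Psmd1 or Psmd2. Both were also absent from other members, higher ones such as Psmg1 (0.62 in total RNA) and Psmg3 (0.58) and lower ones such as Psmg4 (0.00). Their absence is therefore not particular to Psmd1 and Psmd2.

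**Figure D1:**
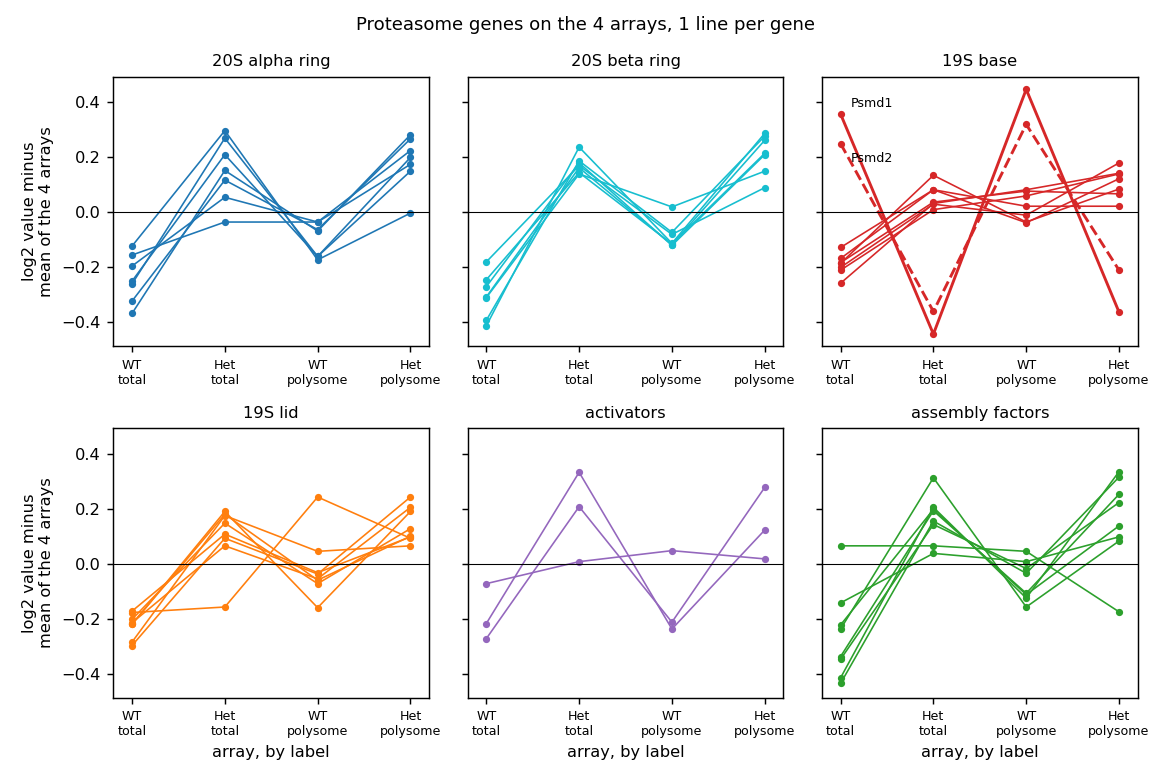
Log2 value of each measured proteasome gene on each of the 4 arrays, minus that gene's mean over the arrays, with 1 line per gene and 1 panel per role (the inducible Psmb10 is not drawn). Most lines are higher on both heterozygote arrays than on the matching wild-type array, and Psmd1 and Psmd2 (labelled) run the other way, as Psmd1 does at 11.01, 10.21, 11.10 and 10.29 from left to right.

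In total RNA, proteasome genes stood moderately higher in the library labelled heterozygote than in the one labelled wild type, with a pair of exceptions. Of the 43 measured genes, 41 were above 0 (66.1% of all 7179 measured genes were), and 40, 37 and 36 were after centring the arrays, quantile normalisation and subtraction of a trend on level. The median difference was 0.39 (1.31-fold), against 0.19 for the median gene. Under the last 2 of these scalings the members' median was 0.25 and 0.20 and the median gene 0.08 and 0.03, so the members are read against the median gene, from which they were 0.20, 0.18 and 0.17 away. There 36 of 43 lay above it, where 50% of all genes do by construction, and 32 to 36 did under the other scalings. Among the top 25% of all genes, which starts at 0.40, were 21 of 43 members. None reached 2-fold, which 0.237% of all genes did upward and 1.49% downward. At 1.5-fold or more, 3 genes were higher (7.42% of all genes) and 2 lower (6.23%), shares near the background. Quantile normalisation and the trend subtraction left 0 higher and 2 lower, and centring left 2 and 2. The SD of the difference between probe sets of the same gene was 0.32 over 2700 genes, so the distance of a single member from the median gene is mostly within that spread.

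The alpha rings, whose gate controls entry to the barrel, had a median of 0.43 in total RNA, and 6 of 7 members lay above the median gene. Psma7 was the highest, at 11.12 on the wild-type and 11.65 on the heterozygote array in total RNA, and 11.22 and 11.53 in polysome RNA. Both heterozygote values were above both wild-type values. Psma6 (0.52), Psma4 (0.46), Psma2 (0.43), Psma1 (0.42) and Psma3 (0.26) followed. The lowest was Psma5, with 11.18 and 11.30 in total RNA and 11.30 and 11.56 in polysome RNA, a difference of 0.12 in total RNA that turned to -0.05 and -0.10 with quantile normalisation and trend subtraction. Its dimmer probe set gave 0.42, close to the other alpha genes.

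The beta rings had a median of 0.45, and 7 of 7 lay above the median gene under each of the scalings run. When all probe sets of a gene were averaged, 6 of 7 did. Psmb2, a structural beta subunit, read 11.19 and 11.84 in total RNA and 11.49 and 11.89 in polysome RNA. Its difference in total RNA was 0.65 (1.57-fold), the largest of all measured subunits. Psmb6, the subunit with caspase-like activity, read 10.66 and 11.24, then 10.98 and 11.33, a difference of 0.59 in total RNA. Psmb5, which carries the chymotrypsin-like site, read 11.74 and 12.21, then 11.93 and 12.31. Psmb7, with the trypsin-like site, read 12.30 and 12.69, then 12.43 and 12.76. In each of these 4 genes the heterozygote value was above the wild-type value in both RNAs. The remaining structural genes Psmb1 (0.45), Psmb4 (0.45) and Psmb3 (0.35) completed the ring. Psmb3's dimmer probe set gave 0.58, but that of Psmb4 gave -0.33. Those of Psmb1, lower in level, gave 0.21 and 0.16, the latter below the floor.

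The inducible counterparts of the active-site subunits form the immunoproteasome under interferon, and 1 of the 3 was measured. Psmb8, the counterpart of Psmb5, read 6.94 and 6.79 in total RNA and 6.78 and 6.71 in polysome RNA. Psmb9, the counterpart of Psmb6, read 5.88 on both total arrays and 6.02 on both polysome arrays. Both were below the floor on all 4 arrays, so their differences are not read as changes of level. Psmb10, the counterpart of Psmb7, was measured, at 8.27 and 8.50 in total RNA and 8.73 and 8.70 in polysome RNA. Its difference was 0.23 in total and -0.03 in polysome RNA, with little separation of the genotype labels in the latter, and in total RNA it lay at percentile 54.5 of all genes. Psma8, a testis subunit, was below the floor throughout, between 4.85 and 5.53.

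Subunits of the 19S base lay close to the median gene or far below it. By their brightest probe sets the 6 ATPase genes had differences in total RNA between 0.21 (Psmc2) and 0.32 (Psmc1). Psmc3 and Psmc6 were at 0.22, Psmc4 at 0.24 and Psmc5 at 0.25. Dimmer probe sets at the floor gave lower values, 0.05 for Psmc2, 0.01 for Psmc4 and 0.09 for Psmc6. Psmc1 read 9.95 and 10.27 in total RNA and 10.10 and 10.22 in polysome RNA. None of the 6 was among the top 25% of genes, and 12 of the 14 alpha and beta ring genes were above the highest ATPase gene. The ATPase median was 0.04 from the median gene, and between -0.04 and 0.04 under the other scalings and probe set choices. The ubiquitin receptor gene Psmd4 was at 0.29, but its other probe sets gave 0.01 and -0.29.

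Psmd1 and Psmd2, which encode the largest subunits of the cap and its docking scaffold, stood apart from the other members. Psmd1 (probe set 1429291_at) read 11.01 on the wild-type and 10.21 on the heterozygote array in total RNA, and 11.10 and 10.29 in polysome RNA. Its differences were -0.80 (1.74-fold lower) and -0.81 (1.75-fold lower), at percentiles 3.04 and 2.63 of all genes. Psmd2 (1415831_at) read 11.54 and 10.93, then 11.61 and 11.08, that is -0.61 (1.52-fold lower) and -0.53 (1.45-fold lower), at percentiles 5.81 and 6.94. For both genes each heterozygote value lay below each wild-type value. Each rests on a single probe set. The lowest of the other 41 genes was at 0.00 in total RNA (Psmg4) and -0.22 in polysome RNA. Both genes remained lower under each scaling.

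Lid subunits had a median of 0.37, with 7 of 8 above the median gene in total RNA. When all probe sets of a gene were averaged the median was 0.29, with 4 of 7 above the median gene. Psmd14, the deubiquitinase that cuts off the ubiquitin chain, was at 0.29, and its partner Psmd7 at 0.40. Psmd13 was the highest in total RNA, with 10.08 and 10.54, but read 10.41 and 10.43 in polysome RNA, so that the labels hardly differed there (0.02). Psmd12 was the lowest, with 10.56 and 10.58 in total RNA and 10.98 and 10.83 in polysome RNA. Its total difference of 0.02 became -0.14 and -0.21 under quantile normalisation and trend subtraction. Psmd11 (0.40), Psmd3 (0.39), Psmd8 (0.34) and Psmd6 (0.28) lay between. The other Psmd11 probe sets at the floor gave 0.39, 0.38 and 0.10, and that of Psmd6 gave -0.32.

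Activators divided by gene. Psme1, a subunit of the interferon-inducible activator, read 9.87 and 10.42 in total RNA and 9.85 and 10.21 in polysome RNA, a difference of 0.55 in total RNA. The probe set shared by its partner Psme2 and by Psme2b was similar, at 0.42 and 0.28 in the total and polysome comparisons. Psme3, the nuclear activator, read 9.53 and 10.01, then 9.59 and 10.08, a polysome difference of 0.48 by its brightest probe set and 0.17 by the next. Psme4, the largest activator, read 10.06 and 10.14, then 10.18 and 10.15. Its brightest probe set thus gave 0.08 and -0.03, whereas its other probe sets gave -0.22 and -0.42 in total RNA and -0.13 and -0.37 in polysome RNA, so no single level describes this gene.

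Assembly factors had the highest median among the roles with more than 3 measured genes, 0.51 in total RNA, with 6 of 8 among the top 25% of genes. When all probe sets of a gene were averaged their median was 0.39, below the 0.47 of the beta rings. Psmg1, which with Psmg2 starts the alpha ring, read 9.29 and 9.91 in total RNA and 9.58 and 10.04 in polysome RNA. Its differences of 0.62 (1.54-fold) and 0.46 both set the heterozygote arrays above the wild-type arrays. Psmg2 was at 0.53, although its dimmer probe set gave 0.19, and Psmg3, which acts with Psmg4 on the next step, at 0.58. Psmg4 did not follow its partner, with 8.17 on both total arrays, 8.15 on the wild-type and 7.93 on the heterozygote polysome array. The base chaperones Psmd10 (0.55) and Psmd9 (0.49) were higher, Psmd5 (0.18) was near the median gene, and Pomp, which matures the beta ring, was at 0.41.

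**Figure D2:**
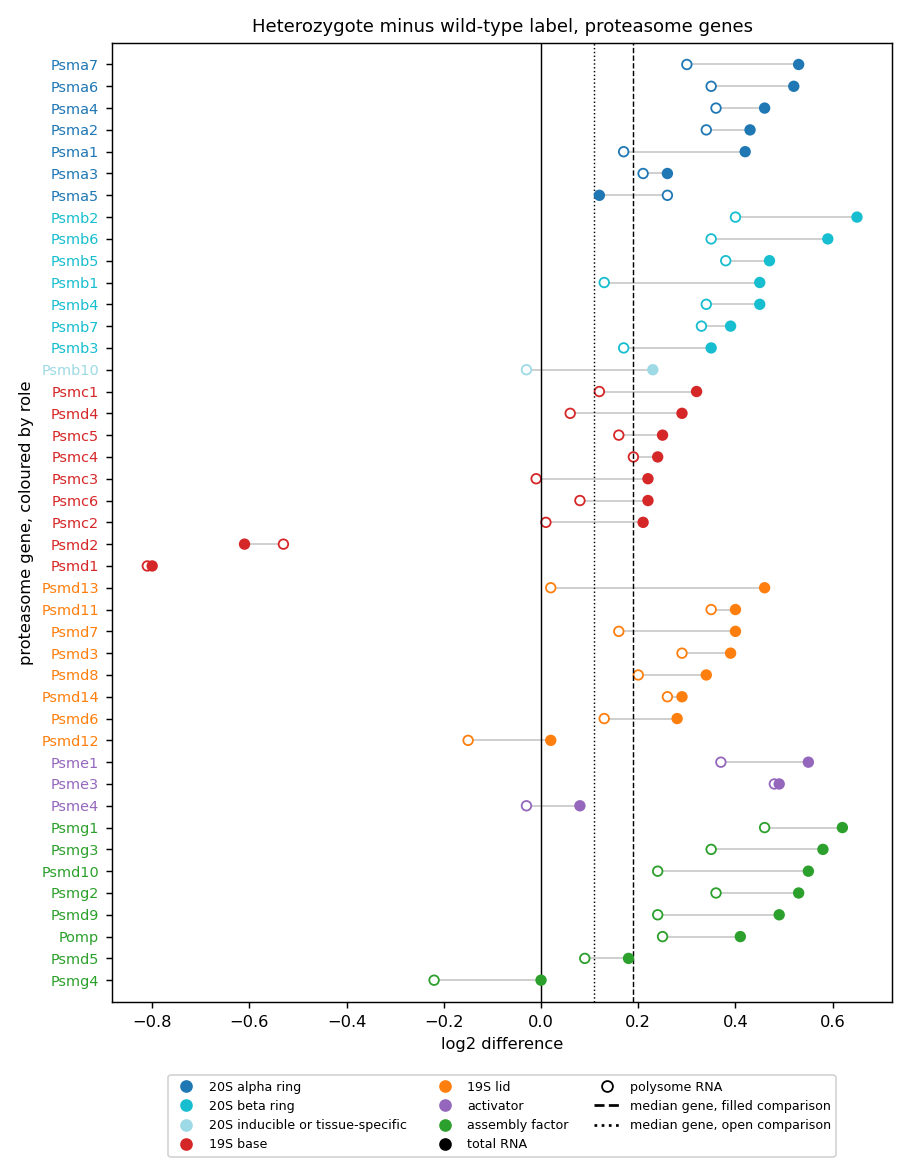
Log2 difference, heterozygote minus wild-type label, of the 43 measured proteasome genes in total RNA (filled) and polysome RNA (open), coloured by role, with the median gene at 0.19 (dashed) and 0.11 (dotted). In total RNA 13 of 14 ring genes and 6 of 8 assembly factors lie right of the dashed line, the ATPases lie between 0.21 and 0.32, and Psmd1 (-0.80) and Psmd2 (-0.61) far to the left.

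In polysome RNA the role medians were smaller, and the assembly factors, highest in total RNA among roles with more than 3 measured genes, stood below both rings. The median of the 43 genes was 0.21 against 0.11 for the median gene (0.15 against 0.06 with quantile normalisation and 0.09 against 0.01 with the trend subtracted), and 31 of 43 were above the median gene (28 to 31 under the other scalings), where 50% of all genes are. Among the top 25% of all genes, which starts at 0.28, were 16 of 43. Above 0 were 36 of 43 (62.9% of all genes), and 37, 32 and 29 after centring, quantile normalisation and trend subtraction. Only Psmd1 passed 1.5-fold, downward, as 5.86% of all genes did, and under quantile normalisation and trend subtraction Psmd2 passed as well. None passed 1.5-fold upward, as 2.08% of all genes did, or 2-fold either way (0.0836% of all genes higher and 1.17% lower).

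By role, 14 of 14 ring genes were above the median gene in polysome RNA (13 after the trend subtraction), with medians of 0.30 for the alpha and 0.34 for the beta rings. Psmb2 (0.40), Psmb5 (0.38) and Psma4 (0.36) led. Psma4 read 11.67 and 12.13 in total RNA and 11.76 and 12.12 in polysome RNA. Psma1 read 10.25 and 10.67, then 10.20 and 10.37, and Psmb1 11.71 and 12.16, then 12.04 and 12.17. These last genes separated the labels less in polysome RNA, at 0.17 and 0.13. ATPase genes had a median of 0.10, with Psmc4 the highest at 0.19 (10.70 and 10.93 in total RNA, 10.89 and 11.08 in polysome RNA). Dimmer probe sets gave 0.30 for Psmc4, 0.15 for Psmc2 and 0.10 for Psmc6, where the brightest gave 0.19, 0.01 and 0.08. The lid had a median of 0.18, led by Psmd11 at 0.35, with 11.86 and 12.27 in total RNA and 11.92 and 12.27 in polysome RNA. Psmd11's other probe sets at the floor gave 0.36, 0.18 and 0.00 in polysome RNA. Assembly factors had a median of 0.25. The comparisons in total and polysome RNA share no array, and their differences correlated across the 43 genes with Pearson r = 0.923 and Spearman rho = 0.812, against 0.907 and 0.876 over all 7179. Genes are not independent replicates, and libraries of 1 label may share a culture.

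**Figure D3:**
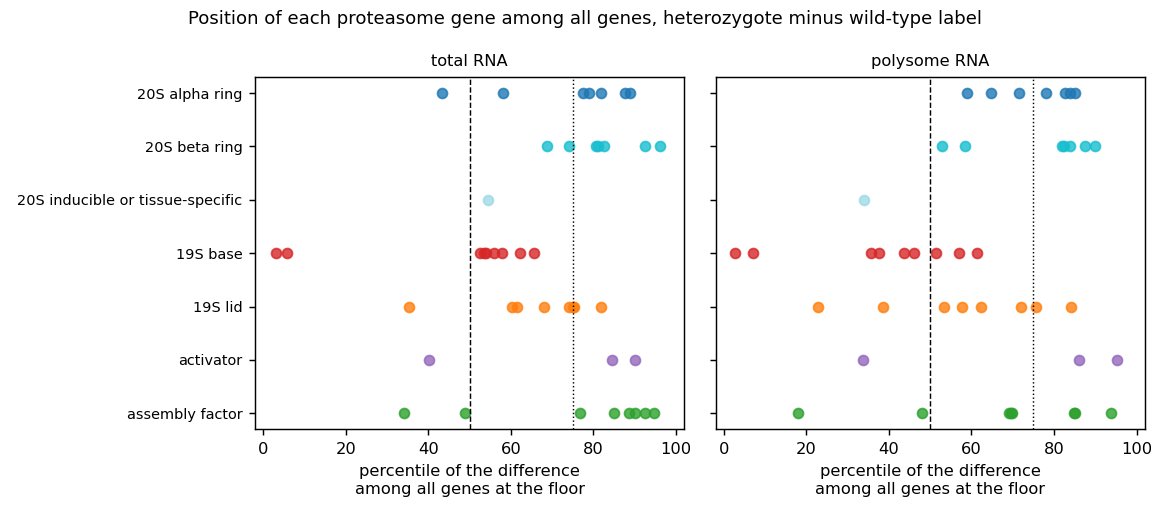
Percentile of each measured proteasome gene's difference (heterozygote minus wild-type label) among all 7179 measured genes, by role, in total RNA (left) and polysome RNA (right), with lines at 50 and 75. In total RNA 10 of 14 ring genes lie right of the line at 75 and none of the 9 base genes does, and Psmd1 and Psmd2 lie at 3.04 and 5.81.

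Probe sets of the same gene were a check within the arrays. Of 16 members with at least 2 probe sets at the floor, the brightest pair had the same sign in 13 in total RNA and 15 in polysome RNA, with a median gap of 0.23 and 0.10. Between the fraction labels the sign was the same in 11 under the wild-type and 8 under the heterozygote label, and for the association difference described further on in 8. Psma6 gave 0.52 and 0.53 in total RNA, Psma7 0.53 and 0.50, Psmd13 0.46 and 0.39, and Psme3 0.49 and 0.41. In total RNA the sign differed in Psmb4, Psmd6 and Psme4 (0.08 and -0.22), and in polysome RNA in Psmd4 (0.06 and -0.17). The other Psmb4 probe set (1438984_x_at) read 11.26 on the wild-type total array and 10.92, 10.93 and 11.12 on the heterozygote total, wild-type polysome and heterozygote polysome arrays. The other Psmd6 probe set (1423696_a_at) read 10.37, 10.05, 10.07 and 10.26 in the same order. In both, the wild-type total array stood highest and the total difference was -0.33 and -0.32, whereas in polysome RNA they gave 0.20 and 0.19. A probe set of Usp14 (1437714_x_at) was also highest on the wild-type total array, at 10.97, 10.13, 10.49 and 10.27.

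**Figure D4:**
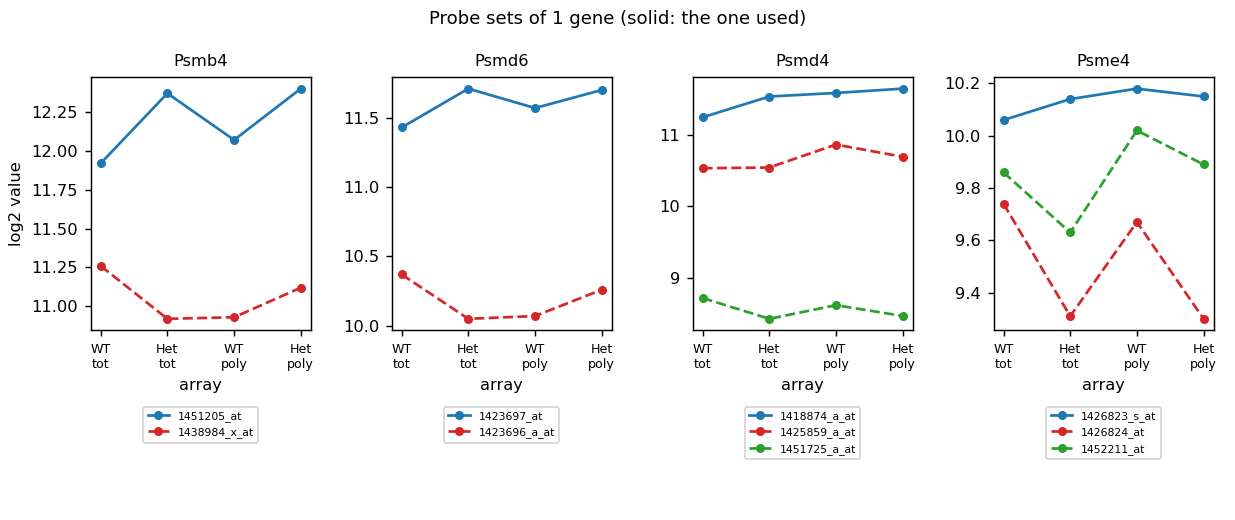
Log2 values on the 4 arrays for every probe set at the floor of Psmb4, Psmd6, Psmd4 and Psme4, each panel with its own axis, with the probe set used as a solid line. The dashed probe sets of Psmb4 and Psmd6 are highest on the wild-type total array, at 11.26 and 10.37, where the solid ones are lowest.

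Between the fraction labels, proteasome genes were close to the median gene. Under the wild-type label their median was 0.15 against 0.14, with 25 of 43 above the median gene and 11 among the top 25% of genes. Under the heterozygote label it was 0.05 against 0.07, with 18 of 43 above the median gene and 3 among the top 25%. No measured member passed 1.5-fold in either, where 3.65% and 2.24% of all genes were higher and 1.56% and 1.35% lower. The counts above 0 were 40 and 29 of 43 (75.6% and 65.1% of all genes) and fell to 30 and 14 after centring the arrays, so no direction is given for the group. These comparisons share their total or polysome label with the ones above and are not independent of them.

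Psmb10 stood highest under the wild-type label, at 0.46, and at 0.20 under the heterozygote label, and Psmd12 next, at 0.42 and 0.25. Markers of macrophages, cells that can hold immunoproteasomes, had median levels over all 14 of 6.41 and 6.59 on the wild-type and heterozygote total arrays. On the polysome arrays these were 7.59 and 7.65. Only 3 of the 14 reached the floor on each total array, against 7 and 9 on the polysome arrays. Of those 3, Lyz2 was at 2.23 and 2.25 between the fraction labels, Csf1r at 0.05 and -0.22 and Laptm5 at 0.14 and 0.04. Adgre1, Cd14, Cd68, Ptprc and Tyrobp were below the floor on all 4 arrays. The part of macrophage RNA in Psmb10's difference was not tested. Psmb8 and Psmb9, the other inducible subunits, were at -0.16 and 0.14 under the wild-type label and at -0.08 and 0.13 under the heterozygote label, below the floor. At the lower end, Psma1 was at -0.05 and -0.30, Psmg4 at -0.02 and -0.25 and Psme1 at -0.02 and -0.21.

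**Figure D5:**
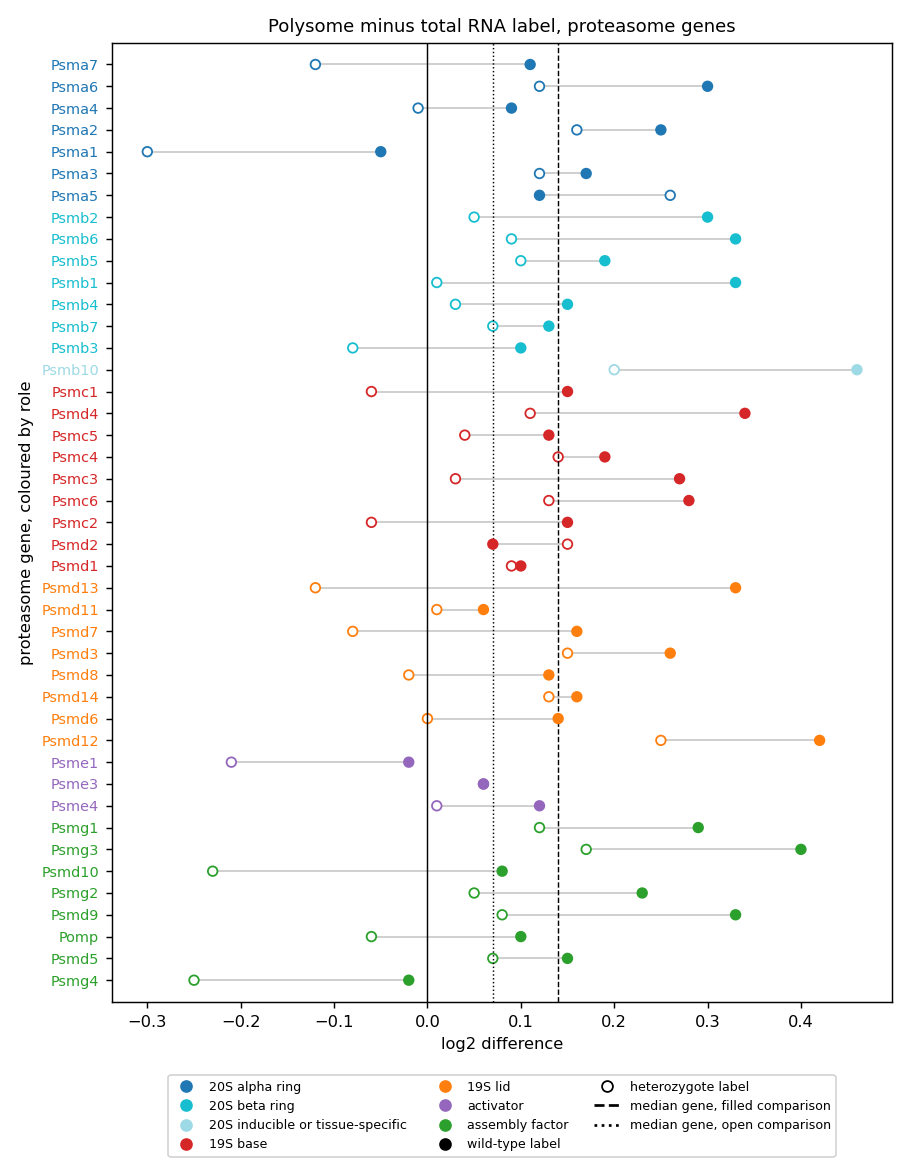
Log2 difference, polysome minus total RNA label, of the 43 measured proteasome genes under the wild-type label (filled) and the heterozygote label (open), with the median gene at 0.14 (dashed) and 0.07 (dotted). Most filled points lie right of their open partner, and no gene reaches 0.58 in either direction.

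The difference between these fraction differences, heterozygote minus wild-type label, asks whether association with ribosomes differs between the labels. It uses all 4 arrays and so is not independent of the values above. Its median over the 43 genes was -0.17 against -0.07 for the median gene, 2 of 43 were above 0 (32.9% of all genes), 41 were below it (39, 37 and 35 under the other scalings) and 34 were below the median gene. No member reached 1.5-fold, as 0.167% of all genes did upward and 0.139% downward. Psmd13 was lowest, at -0.44 (percentile 0.905), and -0.36 at its other probe set, followed by Psmb1 (-0.32) and Psmd10 (-0.31). Psma5 was the highest, at 0.14, but -0.20 at its next probe set. The other probe sets of Psmb4 and Psmd6 gave 0.53 and 0.52, where the brightest gave -0.12 and -0.14, and only 8 of 16 members with a second probe set at the floor kept their sign. Psmd1 (-0.01) and Psmd2 (0.08) were near 0. Probe sets of 1 gene differed with an SD of 0.22 here, and the mean of all probe sets took the members' median to -0.10, 0.03 below the median gene.

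Other genes of the degradation route were read from fixed lists. Of 15 measured proteasome-bound factors and ubiquitin shuttles, 8 were above the median gene in total RNA (50% of all genes) and 3 among the top 25%, with a median of 0.23. Sem1, a small lid subunit outside the symbol rule, read 10.97 and 9.85 in total RNA and 11.40 and 10.06 in polysome RNA, differences of -1.12 and -1.33, and -1.36 and -1.38 at its other probe set. It was thus lower by more than Psmd1, against the higher values of most lid genes. Ipo9, which carries proteasomes into the nucleus, was at -0.67 and -0.80, and Ecpas, a proteasome-bound adaptor, at -0.47 and -0.60. The deubiquitinase gene Uchl5 was at 0.57 and 0.27 while Usp14, the other cap-bound deubiquitinase, was at -0.39 and -0.30 by its brightest probe set. The other Usp14 probe sets gave -0.84 and 0.00 in total RNA and -0.21 and 0.10 in polysome RNA. Psmf1, a proteasome inhibitor, was at 0.12 by its brightest probe set and 0.76 by the next.

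Of 13 measured genes for Vcp and its cofactors, 6 were above the median gene in total RNA. Vcp, the ATPase that extracts ubiquitinated proteins before the proteasome, read 12.54 and 11.79 in total RNA and 12.70 and 11.96 in polysome RNA. Its differences were -0.76 and -0.74, the heterozygote arrays lying below the wild-type arrays in both RNAs, and Ubxn1 was next in size at 0.49. Regulators of proteasome gene transcription had a median of 0.37 in total RNA and 0.35 in polysome RNA, with 7 and 9 of 10 above the median gene. Nfe2l1 was at 0.43 and 0.23, and Nfya, a subunit of the CCAAT-binding factor, at 0.51 and 0.37. Stat3 went the other way, at -1.02 and -0.88.

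Cytosolic peptidases, which trim the peptides the proteasome releases, had a median of -0.33 in total and -0.34 in polysome RNA. None of 9 lay above the median gene in total RNA and 1 did in polysome RNA. Tpp2, a giant peptidase, read 10.53 and 9.55 in total RNA and 10.40 and 9.67 in polysome RNA. Its probe sets 1421893_a_at and 1438264_a_at, above the floor on each array, gave -0.68 and -1.52 in total RNA. Its probe set 1430575_a_at reached the floor only on the wild-type arrays, at 7.58 and 7.98, so its difference is not read. Prep was at -0.55 and -0.52. Class I antigen processing and interferon response genes had a median of -0.04 in total RNA, 3 of 10 above the median gene, with H2-D1 at 0.50. Tap2, counted among the 10, reached the floor only on the wild-type arrays, at 7.61 and 7.72, so its difference is not read. None of the listed ubiquitin and E1 genes was analysed here. The genes that matched by name only were Psme3ip1, which binds the nuclear activator and read 9.25 and 9.96, then 9.79 and 10.15 (0.70 and 0.36), and Psmc3ip, a meiotic recombination factor that was below the floor at 7.19 to 7.45.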

How the data were processed

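Values were measured on Affymetrix probe sets in 4 samples, 1 array per group. The deposited table holds log2 values for 22690 probe sets; per the submitters' processing notes they were made with R 3.4.3, affy 1.56.0 and RMA, which corrects background, normalises between arrays and summarises probes. The settings and genome build are not given in the sources used here. Array medians lay between 7.47 and 7.59. Precision is limited by there being 4 arrays.

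Genes were named from probe sets with 1 symbol; all 48 member genes had an Entrez number in RefSeq and 0 symbols changed. Differences of log2 values were taken with Python 3.11.15 (pandas 2.3.3, statsmodels 0.14.6 for the trend, span 0.3), checked on simulated arrays. No test was run, since each group has 1 array. Genes were described by thresholds of 1.5-fold and 2-fold, by the median gene and by the top 25% of 7179 genes; the last 2 were chosen after values were seen. Members and lists were chosen with earlier results of these data known. Named were members past 1.5-fold, the extremes of each role and the active-site subunits with all arrays, and of each list the largest differences. Some list genes, such as Nfe2l1, Usp14 and Psmf1, were named outside this rule. The alternatives tried were each gene's mean over its probe sets, leaving out _x_at and _s_at probe sets, no floor, a floor at 9.33 (percentile 75), and 3 other scalings.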

Additional observations from a re-analysis of the deposited data

How the results depend on the processing

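With the trend subtracted the members' median went from 0.39 to 0.20 in total RNA and from 0.21 to 0.09 in polysome RNA, and that of the 19S genes in polysome RNA from 0.12 to -0.02. Centring took the members' median between fraction labels under the heterozygote label from 0.05 to -0.05. The count past 1.5-fold went from 5 to 2 in total RNA and from 1 to 2 in polysome RNA, both with quantile normalisation and with the trend subtracted. With the trend subtracted 1 gene (Psmd1) passed 2-fold in total RNA, where 0 did before. With no floor 1 gene (Psma8) passed 1.5-fold between fraction labels under the heterozygote label. The cause of the scaling changes was not tested. With the mean of all probe sets 40 members were measured and the median in total RNA was 0.28, 0.11 above the median gene in place of 0.20, with 28 of 40 above it. Including the genes matched by name only, an alternative chosen after seeing the data, gave 0.40. No paired analysis was possible because the labels give no replicate numbers and each group has 1 array. Dim probe sets such as those of Psmb8 and Psmb9 limit what can be said of them.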
